A study of Mus musculus with 18 samples.

Results

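The GABA and glycine signalling genes were 29 genes picked by symbol for their roles in inhibitory transmission. They cover transmitter synthesis and breakdown, transport, chloride control, the receptors and the postsynaptic scaffold, and all 29 were found among the 55385 rows of the deposited expression tables. The samples were whole hippocampus of C57BL/6 mice with an Arid1a conditional knockout (cKO) or wild type (WT), and Arid1a codes for one of the DNA-binding components of BAF complexes, which remodel chromatin. Polyadenylated RNA was sequenced from 2 cKO and 2 WT libraries at postnatal day 21 (P21), and from 3 cKO and 3 WT libraries at embryonic day 16.5 (E16.5). At 3 weeks, chromatin immunoprecipitation covered the histone marks H3K4me3, H3K27ac and H3K27me3 in 1 cKO and 1 WT library per mark, each genotype with its own input. The series describes the RNA libraries as biological replicates and the chromatin libraries as unreplicated. Neither the Cre line, the cell types it targeted nor any pooling of animals is stated in the labels used here.

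GABA is made from glutamate by the glutamate decarboxylases and, like glycine, is packed into vesicles by a shared vesicular transporter. After release it opens chloride channels of the GABA-A family on the postsynaptic cell, activates the metabotropic GABA-B receptor, and is cleared by plasma membrane transporters on neurons and astrocytes. Whether an open chloride channel inhibits the cell depends on its chloride gradient, which in hippocampal neurons shifts during early postnatal life as the chloride exporter KCC2 (Slc12a5) increases relative to the importer NKCC1 (Slc12a2).

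The promoters of 6 members are shown because the chromatin results below turn on them. Gad1 and Slc32a1 had H3K27me3 peaks in both genotypes, Slc6a11, Gabra5 and Gabbr2 had such a peak in the cKO list only, and Gabra6 had none. Each line gives 250 bases before to 50 bases after a RefSeq transcription start, 5′ to 3′ on the gene's strand, on build GRCm38.p6, and capitals mark every CG dinucleotide (CpG). The windows are Gad1 at chr2:70561879-70562178 (+), Slc32a1 at chr2:158610508-158610807 (+), Slc6a11 at chr6:114130991-114131290 (+), Gabra5 at chr7:57510010-57510309 (-), Gabbr2 at chr4:46991665-46991964 (-) and Gabra6 at chr11:42321023-42321322 (-).
Gad1: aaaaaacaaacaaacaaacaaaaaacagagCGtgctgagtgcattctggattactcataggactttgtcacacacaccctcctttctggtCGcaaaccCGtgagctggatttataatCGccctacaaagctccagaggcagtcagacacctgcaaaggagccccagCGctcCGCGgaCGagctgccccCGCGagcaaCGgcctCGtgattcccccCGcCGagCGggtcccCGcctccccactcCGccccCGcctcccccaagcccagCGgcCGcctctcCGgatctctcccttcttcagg
Slc32a1: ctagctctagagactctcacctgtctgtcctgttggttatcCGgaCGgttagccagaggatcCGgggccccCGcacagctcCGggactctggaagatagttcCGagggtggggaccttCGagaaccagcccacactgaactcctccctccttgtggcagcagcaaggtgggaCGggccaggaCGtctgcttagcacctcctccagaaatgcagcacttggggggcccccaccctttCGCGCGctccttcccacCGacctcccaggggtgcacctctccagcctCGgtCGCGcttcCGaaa
Slc6a11: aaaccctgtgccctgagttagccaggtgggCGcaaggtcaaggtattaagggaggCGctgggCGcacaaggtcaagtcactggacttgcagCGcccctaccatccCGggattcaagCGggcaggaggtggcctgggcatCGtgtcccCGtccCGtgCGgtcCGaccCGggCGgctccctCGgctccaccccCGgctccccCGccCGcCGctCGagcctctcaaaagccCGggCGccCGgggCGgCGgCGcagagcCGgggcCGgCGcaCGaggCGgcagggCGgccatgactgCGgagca
Gabra5: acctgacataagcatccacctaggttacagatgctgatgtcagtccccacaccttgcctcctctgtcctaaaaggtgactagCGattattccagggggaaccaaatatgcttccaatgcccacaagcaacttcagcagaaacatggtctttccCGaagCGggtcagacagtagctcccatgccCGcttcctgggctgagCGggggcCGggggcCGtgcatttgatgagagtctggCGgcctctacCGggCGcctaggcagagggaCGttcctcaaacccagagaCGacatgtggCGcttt
Gabbr2: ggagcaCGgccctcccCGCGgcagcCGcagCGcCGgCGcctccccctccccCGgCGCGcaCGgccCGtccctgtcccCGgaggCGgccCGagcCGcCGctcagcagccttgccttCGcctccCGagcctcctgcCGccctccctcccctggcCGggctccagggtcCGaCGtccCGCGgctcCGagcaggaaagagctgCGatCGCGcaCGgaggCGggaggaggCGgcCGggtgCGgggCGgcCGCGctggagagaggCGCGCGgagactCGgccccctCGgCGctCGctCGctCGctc
Gabra6: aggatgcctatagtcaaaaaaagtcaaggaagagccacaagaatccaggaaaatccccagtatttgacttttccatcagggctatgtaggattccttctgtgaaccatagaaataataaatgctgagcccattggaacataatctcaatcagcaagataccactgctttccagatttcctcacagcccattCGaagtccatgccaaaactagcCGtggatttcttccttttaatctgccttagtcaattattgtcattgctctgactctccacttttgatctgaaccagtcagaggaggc

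The motif searched was CG, which reads the same on both strands, and across all 32851 RefSeq mouse promoters of this length the median was 7 per window. Gabbr2 held 46, and 1.65% of all promoters held at least as many. Slc6a11 held 32, reached by 9.52% of all promoters, and Gad1 held 21, reached by 24.8%. Slc32a1 held 17 and Gabra5 13, counts reached by 31.4% and 37.9% of all promoters. Gabra6, at the other end, held 2, and 85.9% of promoters held at least as many. RefSeq promoter sequences were matched for 25 members with 33 start sites, and Gabrd, Slc12a2, Abat and Glra1 had no entry. GC content of the 33 windows ran from 38.3% to 80.3% with a median of 60.3%, beside a median of 52.7% over all promoters.

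Several receptor genes lie in clusters, so their start sites are not independent positions. Gabra4 and Gabrb1 start 387 bases apart on opposite strands of chromosome 5, and a peak there was counted for both. Gabra2 and Gabrg1 are 253 kb apart on the same chromosome, Gabra5 and Gabrg3 are 123 kb apart on chromosome 7, Gabra6 and Gabrb2 are 99.4 kb apart on chromosome 11, and on chromosome X Gabra3 lies 382 kb from Gabre and 168 kb from Gabrq. The sources used here do not say whether counting used strand, so reads of overlapping transcripts cannot be told apart.

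The P21 libraries held between 20089631 and 20332148 estimated counts and the E16.5 libraries between 17662335 and 19760764. Values are CPM, counts scaled to library totals after TMM normalisation. They are not scaled to transcript length, so levels of different genes are not compared, and a ratio of 2 genes is compared only between libraries. Arid1a was lower in the cKO libraries at both ages, with 110.0 and 89.2 CPM in cKO against 215 and 205 CPM in WT at P21, and 180.0, 175 and 176 CPM in cKO against 262, 282 and 285 CPM in WT at E16.5. The log2 fold change was −1.08 (SE 0.13, adjusted p = 0.00507) at P21 and −0.64 (SE 0.06, adjusted p = 0.032) at E16.5, by edgeR's quasi-likelihood test with Benjamini-Hochberg adjustment over all genes. These counts may include transcripts that lack the deleted part. All 9 excitatory neuron markers and all 6 dentate granule neuron markers had counts in every library. Having counts does not show that tissue make-up was equal. At E16.5 summed dentate granule neuron markers were 26.98, 76.5 and 76.1 CPM in cKO against 129.6, 115 and 109.6 CPM in WT. At P21 summed thalamus and habenula markers were 174 and 142 CPM in cKO against 124 and 115 CPM in WT. Summed cerebellar granule cell markers were 162 and 93.98 CPM in cKO against 78.3 and 74.4 CPM in WT at that age. Summed microglia markers were 81.9 and 79.5 CPM in cKO against 181 and 173 CPM in WT at P21, and summed oligodendrocyte markers were 3740.4 and 3513 CPM in cKO against 5877 and 6233 CPM in WT. At E16.5 summed choroid plexus markers ranged from 2.47 to 2511 CPM in cKO and from 27.1 to 4855 CPM in WT, so single embryonic libraries differed within each genotype. In RNA from whole tissue, fewer cells of a type and less RNA per cell cannot be told apart.

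At P21, 2 of the 10 tested GABA-A subunit genes fell in cKO hippocampus by edgeR. They were Gabrb1, a beta subunit, and Gabrd, the delta subunit of extrasynaptic receptors, while 4 of the 10 had positive log2 fold changes, and no member rose at an adjusted p of 0.05. Synthesis genes, the chloride transporters and the scaffold genes did not pass. Of the 25 members with enough counts to test, 2 were lower, beside 3.91% of all 17407 genes tested, and 0 were higher, beside 2.81%. Before adjustment, 6 lower members had a p under 0.05, beside 13.2% of all genes, and 1 higher, beside 11.7%. DESeq2 on the same counts called 4 lower, Slc6a11, Gabra5, Gabrb1 and Gabrb2, beside 5.20% of all genes, and 0 higher, beside 2.98%, and the authors' deposited table likewise held 4 lower and 0 higher. The cKO values lay below every WT value for 9 members, beside 27.9% of all genes, and above for 4, beside 28.2%. The median log2 fold change of the 25 members was 0.05, beside 0.01 over all genes.

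At E16.5 no member passed in edgeR. Of 25 tested, 0 were lower, beside 0.112% of all 16958 genes tested, and 0 higher, beside 0.0118%, while before adjustment 5 lower had a p under 0.05, beside 11.5% of all genes, and 0 higher, beside 9.13%. DESeq2 called 3 lower, the GABA transporter gene Slc6a11, Gabra5 and Gabbr2, beside 4.49% of all genes, and 0 higher, beside 2.22%. The authors' deposited table also held 3 lower and 0 higher. The groups did not overlap for 9 members with cKO lower, beside 15.3% of all genes, and for 0 with cKO higher, beside 14.0%. The median log2 fold change was −0.25, beside −0.01 over all genes, with 22 members negative and 3 positive.

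**Figure D1:**
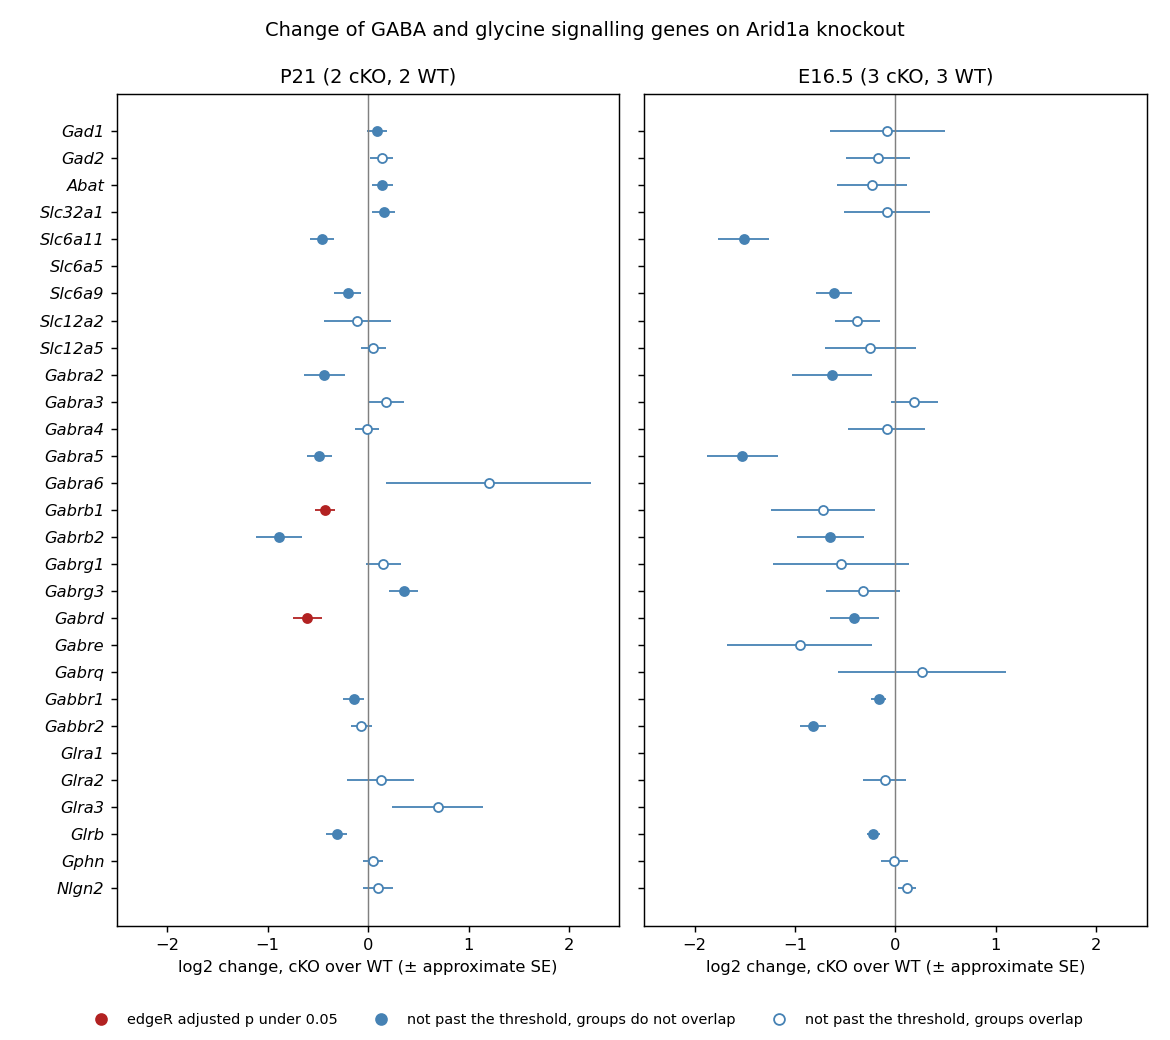
Log2 fold change of cKO over WT for each tested member at P21 and at E16.5, with bars of 1 approximate SE and members ordered by role. At P21 Gabrb1 (−0.43) and Gabrd (−0.61) passed the threshold; at E16.5 the longest negative values belong to Gabra5 (−1.52) and Slc6a11 (−1.51), and none passed.

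Among the 23 members tested at both ages, 8 had every cKO library below every WT library at each age, beside 5.85% of all 15851 genes so tested. They were Slc6a11, Slc6a9, Gabra2, Gabra5, Gabrb2, Gabrd, Gabbr1 and Glrb. No member had cKO above WT at both ages, beside 4.20% of all genes.

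Synthesis and breakdown genes did not differ detectably between genotypes at either age. Gad1 encodes GAD67, the decarboxylase that makes most of the GABA in the brain. It had 259 and 269 CPM in cKO libraries against 250.3 and 245 CPM in WT libraries at P21, and 33.7, 50.3 and 128 CPM in cKO against 57.3, 117 and 50.3 CPM in WT at E16.5. The P21 values of cKO lay just above those of WT, and the E16.5 groups overlapped widely, with cKO replicate 3 and WT replicate 2 high. For Gad1 the log2 fold change was 0.09 (SE 0.10, edgeR adjusted p = 0.622) at P21 and −0.08 (SE 0.57, edgeR adjusted p = 0.944) at E16.5.

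Gad2, the gene for the synaptic decarboxylase GAD65, had 158 and 141 CPM in cKO against 129 and 143 CPM in WT at P21. At E16.5 it had 30.3, 31.4 and 52.8 CPM in cKO against 37.3, 60.1 and 31.5 CPM in WT. The groups overlapped at both ages. Abat, the GABA transaminase that degrades GABA, had 239.6 and 259 CPM in cKO against 223 and 229 CPM in WT at P21, and 29.4, 41.8 and 67.9 CPM in cKO against 55.1, 69.5 and 39.2 CPM in WT at E16.5. At P21 the cKO values lay above WT without overlap, and at E16.5 the same pair of libraries, cKO replicate 3 and WT replicate 2, were the highest of their groups.

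Slc32a1 encodes VGAT, the vesicular transporter shared by GABA and glycine. Its level was 70.8 and 70.0 CPM in cKO against 69.0 and 57.6 CPM in WT at P21 and 40.0, 50.6 and 103 CPM in cKO against 53.2, 100.04 and 53.2 CPM in WT at E16.5. Its log2 fold changes, 0.15 (SE 0.12) at P21 and −0.09 (SE 0.43) at E16.5, had edgeR adjusted p-values of 0.47 and 0.918. The P21 values of cKO lay just above WT. The embryonic cKO replicate 3 and WT replicate 2 were also the highest of their groups in summed markers of subpallial and migrating interneurons, which were 707, 623 and 772 CPM in cKO and 642, 829.7 and 612 CPM in WT. Their part in the result was not tested. Without those 2 libraries, an alternative added after the data were seen, Gad1 had a log2 fold change of −0.36 and Slc32a1 of −0.23 at E16.5, and 0 members passed.

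**Figure D2:**
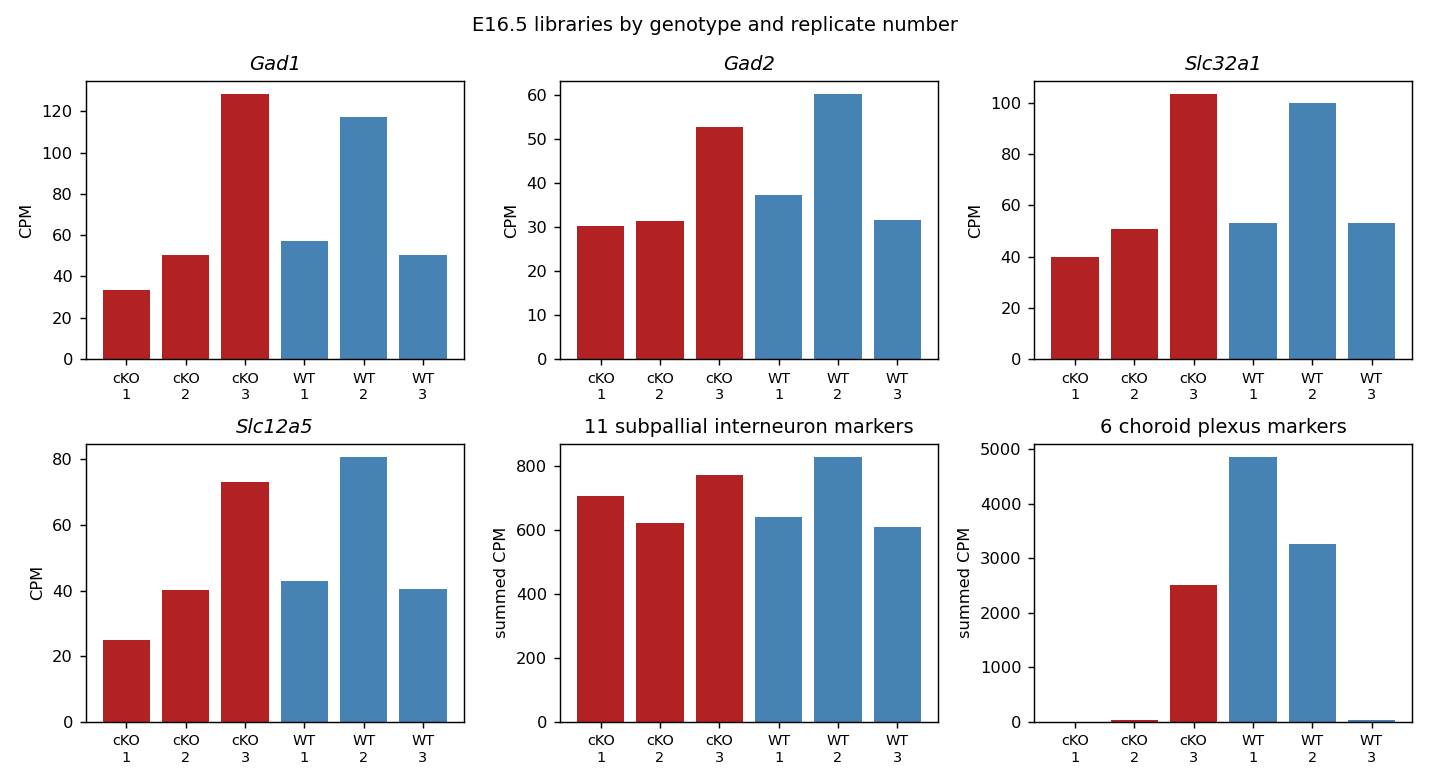
CPM of Gad1, Gad2, Slc32a1 and Slc12a5 and summed CPM of the subpallial interneuron and choroid plexus markers in the 6 embryonic libraries, one bar per library, with cKO left of WT. For Gad1 the highest bars are cKO replicate 3 (128 CPM) and WT replicate 2 (117 CPM), far above the other 4 libraries.

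No plasma membrane transporter passed between cKO and WT in edgeR at either age. Slc6a11, the GABA transporter GAT3 of astrocytes, had 95.4 and 103 CPM in cKO against 149 and 125 CPM in WT at P21. In embryos it had 30.6, 47.1 and 62.8 CPM in cKO against 124, 133 and 144 CPM in WT, a mean of 46.8 ± 16.1 CPM in cKO and 134 ± 9.75 CPM in WT (SD, n = 3 each). Every cKO library lay below every WT library at both ages. Slc6a11 had a log2 fold change of −0.46 (SE 0.12, edgeR adjusted p = 0.0614) at P21 and −1.51 (SE 0.25, edgeR adjusted p = 0.119) at E16.5. DESeq2 gave adjusted p-values of 0.0134 and 7.36e-08 for these, so the call depended on the test. Leaving out P21 cKO replicate 2 brought edgeR's adjusted p to 0.0354. Over all alternatives tried, the adjusted p ran from 0.00981 to 0.373 at P21 and from 7.36e-08 to 0.396 at E16.5, where edgeR called it in the fit of all 10 libraries.

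Slc6a9 encodes GlyT1, the mainly glial glycine transporter. It had 33.3 and 41.6 CPM in cKO against 42.1 and 44.0 CPM in WT at P21, and 14.2, 17.8 and 20.8 CPM in cKO against 31.1, 27.1 and 22.5 CPM in WT at E16.5. The groups did not overlap at either age, although the nearest values were close. The log2 fold changes were −0.20 (SE 0.13, edgeR adjusted p = 0.391) at P21 and −0.61 (SE 0.18, edgeR adjusted p = 0.176) at E16.5. Summed astrocyte markers were also lower in cKO, with 3673 and 3559 CPM in cKO against 4281 and 4253 CPM in WT at P21 and 242, 392 and 458 CPM in cKO against 923, 736 and 720.5 CPM in WT at E16.5. By edgeR 3 of 9 of these markers were lower at P21, beside 3.91% of all genes. At E16.5 it was 1 of 8, beside 0.112%. At neither age was 1 higher, and none was at 0 in any library. At P21, 2 of the 9 went the other way, with every cKO library above every WT library. Of these 2, 1 had an unadjusted edgeR p under 0.05. The part of astrocyte markers in the result for both transporters was not tested.

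Slc6a5, the neuronal glycine transporter GlyT2 that is known mainly from hindbrain and spinal cord, was near the detection limit. It had 4 and 1 estimated counts in the cKO libraries against 1 and 1 in the WT libraries at P21, and 2, 1 and 0 in cKO against 3, 4 and 5 in WT at E16.5. Slc6a5 had too few counts for the edgeR test. DESeq2 gave log2 fold changes of 1.28 (SE 2.52) at P21 and −1.89 (SE 1.54) at E16.5.

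Neither chloride transporter gene passed the test between genotypes. Slc12a5 had 491 and 608 CPM in cKO against 538 and 521 CPM in WT at P21, and 24.9, 40.0 and 73.0 CPM in cKO against 42.9, 80.7 and 40.5 CPM in WT at E16.5. Slc12a2 had 88.6 and 47.1 CPM in cKO against 69.8 and 76.5 CPM in WT at P21, and 26.8, 36.2 and 45.8 CPM in cKO against 55.9, 46.9 and 39.0 CPM in WT at E16.5. The groups overlapped for both genes at both ages. Slc12a2 in P21 cKO replicate 1 was well above replicate 2, and the same library held 3617 CPM of summed choroid plexus markers against 1032 CPM in replicate 2. Choroid plexus is known to express Slc12a2 strongly, and its part in that value was not tested. Without cKO replicate 1, Slc12a2 had a log2 fold change of −0.63 with an edgeR adjusted p of 0.00332 at P21. With all libraries the value was −0.11 (SE 0.33, edgeR adjusted p = 0.878), and over the alternatives it ran from −0.63 to 0.27, with adjusted p from 0.00332 to 0.988.

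The ratio of Slc12a5 to Slc12a2 counts, which does not say which transcript was the more abundant, was 5.53 and 12.9 in cKO against 7.72 and 6.81 in WT at P21. At E16.5 it was 0.931, 1.10 and 1.59 in cKO against 0.768, 1.72 and 1.04 in WT. The ratio was higher in all 4 P21 libraries than in any embryonic library, and within each age the genotypes overlapped. The log2 ratio was 3.08 ± 0.86 in cKO and 2.86 ± 0.13 in WT at P21 (SD, n = 2 each; two-sided exact permutation p = 1, where the smallest possible is 0.333). At E16.5 it was 0.24 ± 0.40 in cKO and 0.15 ± 0.59 in WT (SD, n = 3 each; two-sided exact permutation p = 0.9, where the smallest possible is 0.1).

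Among the GABA-A alpha subunits, Gabra5 and Gabra2 were lower in cKO at both ages without reaching the threshold, and Gabra3 and Gabra4 overlapped WT. Gabra5, the subunit of extrasynaptic receptors that is abundant in hippocampal pyramidal cells, had 156 and 188 CPM in cKO against 232 and 248 CPM in WT at P21. In embryos it had 14.8, 28.9 and 42.2 CPM in cKO against 76.6, 86.1 and 84.6 CPM in WT, which averaged 28.6 ± 13.7 CPM in cKO and 82.4 ± 5.07 CPM in WT (SD, n = 3 each). No cKO library reached a WT library at either age. The log2 fold change was −0.49 (SE 0.12, edgeR adjusted p = 0.0568; DESeq2 adjusted p = 0.00514) at P21. At E16.5 it was −1.52 (SE 0.35, edgeR adjusted p = 0.147; DESeq2 adjusted p = 0.000182). In edgeR the P21 value passed when either cKO library was left out. Over all alternatives the adjusted p ran from 0.00514 to 0.507 at P21 and from 0.000182 to 0.432 at E16.5. Of 9 excitatory neuron markers, 7 had negative and 2 positive log2 fold changes at P21. By edgeR 1 of them was lower there, beside 3.91% of all genes, and 0 higher, beside 2.81%. At E16.5, 3 were negative and 6 positive, and none passed. The part of these markers in the Gabra5 values was not tested.

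Gabra2, a subunit of synaptic receptors on axon initial segments, had 133 and 88.9 CPM in cKO against 136 and 164 CPM in WT at P21, and 23.3, 76.2 and 61.3 CPM in cKO against 82.2, 84.9 and 82.4 CPM in WT at E16.5. The groups did not overlap, but P21 cKO replicate 1 lay just under the WT values and the embryonic deficit was largest in cKO replicate 1. Its log2 fold changes were −0.44 (SE 0.21, edgeR adjusted p = 0.255) at P21 and −0.63 (SE 0.40, edgeR adjusted p = 0.399) at E16.5. Leaving out P21 cKO replicate 1 gave −0.75 with an edgeR adjusted p of 0.00344, within a range of 0.00344 to 0.685 over the alternatives.

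Gabra3 had 32.8 and 46.5 CPM in cKO against 32.9 and 37.0 CPM in WT at P21, and 33.0, 27.4 and 36.2 CPM in cKO against 22.6, 38.4 and 23.8 CPM in WT at E16.5. Gabra4, a partner of the delta subunit in extrasynaptic receptors, had 96.0 and 86.5 CPM in cKO against 85.1 and 99.3 CPM in WT at P21, and 7.91, 22.7 and 21.9 CPM in cKO against 17.0, 19.3 and 19.5 CPM in WT at E16.5. Both overlapped between genotypes at both ages. The P21 log2 fold change of Gabra3 was 0.18 (SE 0.17). Over the alternatives it ran from −0.09 to 0.41, the latter without cKO replicate 1. Gabra6, the alpha subunit of cerebellar granule cells, had 29 and 9 estimated counts in cKO against 15 and 1 in WT at P21, and 0, 0 and 0 in cKO against 1, 3 and 0 in WT at E16.5. The part of cerebellar granule cell markers in the Gabra6 counts was not tested.

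Of the beta subunits, Gabrb1 passed at P21 only and Gabrb2 at neither age in edgeR. Gabrb1 had 113 and 113 CPM in cKO against 148 and 155 CPM in WT at P21, with a mean of 113 ± 0.165 CPM in cKO and 152 ± 4.45 CPM in WT (SD, n = 2 each). The groups were widely apart for their spread. The log2 fold change was −0.43 (SE 0.10, edgeR adjusted p = 0.0457; DESeq2 adjusted p = 0.00484), and the call was lost without WT replicate 1 or WT replicate 2, the adjusted p then reaching up to 0.273. It also did not pass with upper-quartile scaling or in the fit of all 10 libraries, and over all alternatives the adjusted p ran from 0.00484 to 0.712. At E16.5 the gene had 9.81, 36.4 and 46.1 CPM in cKO against 41.8, 53.0 and 57.4 CPM in WT. There cKO replicate 3 overlapped WT and cKO replicate 1 was far below all others, and the log2 fold change was −0.72 (SE 0.52, edgeR adjusted p = 0.452).

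Gabrb2, the beta subunit found with alpha1 in the commonest synaptic receptors, had 165 and 109 estimated counts in cKO against 219 and 276 in WT at P21. At E16.5 it had 18, 13 and 19 estimated counts in cKO against 21, 23 and 38 in WT. Every cKO library was lower at both ages, on few counts in embryos. For Gabrb2 the log2 fold change was −0.88 (SE 0.23, edgeR adjusted p = 0.0609; DESeq2 adjusted p = 0.0478) at P21 and −0.65 (SE 0.33, edgeR adjusted p = 0.314) at E16.5. The P21 adjusted p ran from 0.00363 to 0.299 over the alternatives.

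Gabrd forms the delta subunit of receptors that carry tonic inhibition and is known for its expression in dentate granule neurons. It had 10.2 and 10.2 CPM in cKO against 15.5 and 15.6 CPM in WT at P21, from 212 and 204 estimated counts in cKO and 310 and 312 in WT. The replicates were nearly equal within each genotype. Gabrd had a log2 fold change of −0.61 (SE 0.14, edgeR adjusted p = 0.0483; DESeq2 adjusted p = 0.0848), so only edgeR called it, and the call was lost without WT replicate 1 or WT replicate 2, with an adjusted p of up to 0.256. Over all alternatives the adjusted p ran from 0.021 to 0.256, and the gene did not pass with upper-quartile scaling or in the fit of all 10 libraries. At E16.5 it had 1.68, 1.92 and 1.65 CPM in cKO against 2.16, 2.003 and 2.82 CPM in WT. The groups did not overlap by a small margin, and the log2 fold change was −0.41 (SE 0.24, edgeR adjusted p = 0.367). Dentate granule neuron markers summed to 229.7 and 237 CPM in cKO against 461 and 496 CPM in WT at P21. Of these 6 markers, 5 were lower by edgeR, beside 3.91% of all genes, and none was higher, beside 2.81%. None of them was at 0. Their part in the values of Gabrd and of the other receptor genes was not tested.

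Of the gamma, epsilon and theta subunits, none passed. Gabrg3 was the member with an unadjusted p under 0.05 in the positive direction at P21, with 20.3 and 25.0 CPM in cKO against 17.7 and 17.7 CPM in WT (log2 fold change 0.35, SE 0.14, edgeR adjusted p = 0.178). Without P21 cKO replicate 1 it passed in edgeR, with an adjusted p of 0.0238, the lowest of a range up to 0.69 over the alternatives. Gabrg1, a gamma subunit of restricted expression in brain, had 12.9 and 10.5 CPM in cKO against 9.92 and 11.2 CPM in WT at P21, which overlapped. Gabre had 15 and 9 estimated counts in cKO against 2 and 4 in WT at P21, and 15, 7 and 23 in cKO against 37, 46 and 7 in WT at E16.5. Gabrq had 12 and 7 estimated counts in cKO against 7 and 4 in WT at P21, and 5, 38 and 49 in cKO against 17, 49 and 13 in WT at E16.5.

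The GABA-B receptor needs both of its subunits to reach the cell surface and signal. Gabbr1, which binds GABA, had 792 and 865 CPM in cKO against 907 and 923 CPM in WT at P21, and 310.0, 313 and 315 CPM in cKO against 316, 373 and 366 CPM in WT at E16.5. The cKO values were lower without overlap at both ages, by a small step. Its log2 fold changes were −0.14 (SE 0.11, edgeR adjusted p = 0.448) at P21 and −0.17 (SE 0.08, edgeR adjusted p = 0.278) at E16.5.

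Gabbr2, which couples to the G protein, had 439 and 456 CPM in cKO against 452 and 486 CPM in WT at P21. In embryos it had 46.8, 48.1 and 59.2 CPM in cKO against 77.7, 98.4 and 95.8 CPM in WT, a mean of 51.4 ± 6.82 CPM in cKO and 90.6 ± 11.3 CPM in WT (SD, n = 3 each). The genotypes overlapped at P21 and were apart at E16.5. For Gabbr2 the log2 fold change was −0.07 (SE 0.10, edgeR adjusted p = 0.733) at P21. At E16.5 it was −0.82 (SE 0.13, edgeR adjusted p = 0.106; DESeq2 adjusted p = 1.19e-05), and edgeR called it lower without the filter on low counts and in the fit of all 10 libraries. Over the alternatives the adjusted p ran from 1.19e-05 to 0.392.

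No glycine receptor gene passed. Glrb, the beta subunit that anchors the receptor to gephyrin, had 146 and 149 CPM in cKO against 174 and 193 CPM in WT at P21, and 31.9, 29.6 and 33.0 CPM in cKO against 37.1, 36.9 and 36.2 CPM in WT at E16.5. Each cKO library was below each WT library. The log2 fold changes were −0.31 (SE 0.10, edgeR adjusted p = 0.117) at P21 and −0.22 (SE 0.07, edgeR adjusted p = 0.179) at E16.5. Glra2, the alpha subunit of immature receptors, had 9.79 and 5.06 CPM in cKO against 5.81 and 7.82 CPM in WT at P21, and 33.3, 51.1 and 50.4 CPM in cKO against 43.1, 59.5 and 42.7 CPM in WT at E16.5. It overlapped between genotypes at both ages.

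Glra3 had 68 and 30 estimated counts in cKO against 22 and 37 in WT at P21, and 1, 2 and 7 in cKO against 1, 20 and 1 in WT at E16.5. Glra1, the alpha subunit of adult spinal receptors, had 1 and 0 estimated counts in cKO against 0 and 0 in WT at P21. At E16.5 it had 2, 0 and 0 in cKO against 0, 1 and 0 in WT. Glra1 had too few counts for the edgeR test. DESeq2 gave log2 fold changes of 1.40 (SE 4.996) at P21 and 1.03 (SE 4.03) at E16.5.

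The scaffold genes were close between genotypes. Gphn encodes gephyrin, which holds GABA-A and glycine receptors at inhibitory synapses, and had 80.7 and 84.3 CPM in cKO against 77.5 and 82.1 CPM in WT at P21, and 46.7, 64.6 and 66.0 CPM in cKO against 58.4, 58.8 and 61.3 CPM in WT at E16.5. Nlgn2, the adhesion protein of inhibitory synapses, had 338 and 427 CPM in cKO against 389.9 and 326 CPM in WT at P21, and 554, 516 and 485 CPM in cKO against 436, 512 and 491 CPM in WT at E16.5. Both genes overlapped at both ages. The log2 fold change of Nlgn2 was 0.10 (SE 0.15, edgeR adjusted p = 0.731) at P21 and 0.11 (SE 0.09, edgeR adjusted p = 0.492) at E16.5.

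**Figure D3:**
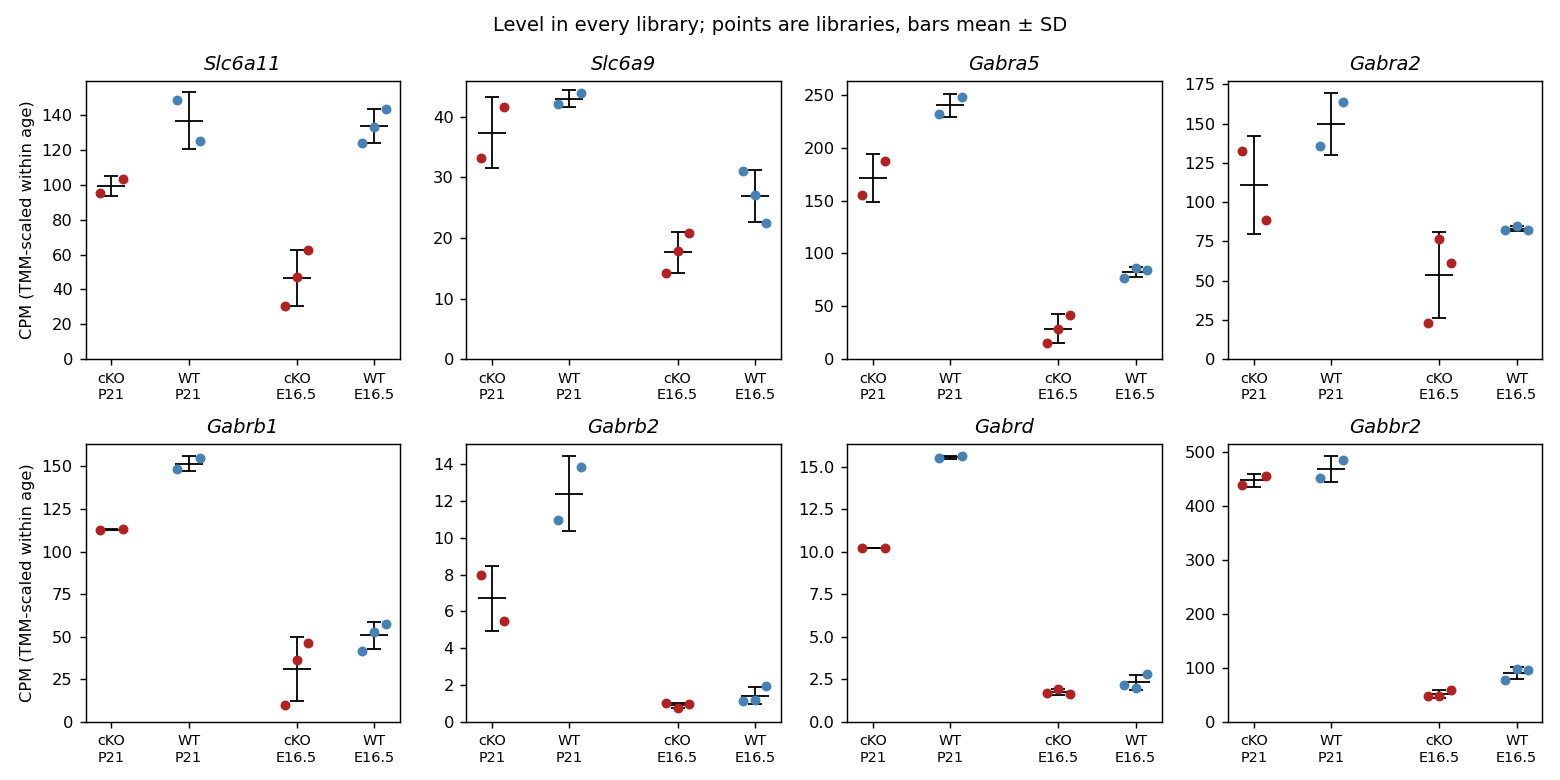
CPM in each of the 10 RNA libraries for 8 members, one point per library with bars of the mean and SD, cKO left of WT at each age. Slc6a11 and Gabra5 show no overlap between genotypes at either age, whereas Gabbr2 overlaps at P21 and is apart at E16.5 (51.4 ± 6.82 CPM in cKO, 90.6 ± 11.3 CPM in WT).

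The cKO effect was compared between ages in a joint fit of the 10 libraries, as P21 minus E16.5. Of 27 members tested, 0 were lower, beside 0.738% of all 18979 genes tested, and 0 were higher, beside 0.427%, and before adjustment 3 higher had a p under 0.05, beside 9.57% of all genes, and 0 lower, beside 10.5%. The share of members that were higher is close to that of all genes. Those 3 were Gabbr2 at 0.71 (SE 0.18, edgeR adjusted p = 0.0918; DESeq2 adjusted p = 0.0236), Slc6a11 at 1.01 (SE 0.35, edgeR adjusted p = 0.17; DESeq2 adjusted p = 0.0534), and Gabre at 2.84 (SE 1.17, edgeR adjusted p = 0.225), which rests on few counts. Without E16.5 cKO replicate 3, Slc6a11 and Gabbr2 passed in edgeR. Gabra5 had a difference of 1.0 (SE 0.47, edgeR adjusted p = 0.283).

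Most members were higher at the later age in both genotypes. In cKO hippocampus 21 of 27 members were higher at P21 than at E16.5, beside 31.6% of all genes, and 1 was lower, beside 33.6%. In WT hippocampus 16 were higher, beside 27.8% of all genes, and 2 were lower, beside 32.6%. The ages were deposited as separate tables, so age and any difference in sequencing or processing between them cannot be told apart. Slc12a5 was higher at P21 by 3.72 on the log2 scale in cKO (SE 0.45, edgeR adjusted p = 0.000129) and by 3.46 in WT (SE 0.45, edgeR adjusted p = 0.000212). Slc12a2 was also higher at P21, by 1.05 in cKO (SE 0.29, edgeR adjusted p = 0.0118) and 0.81 in WT (SE 0.29, edgeR adjusted p = 0.0369).

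The synthesis genes shared this direction, with Gad1 higher by 2.05 in cKO and 1.91 in WT, and Gad2 by 2.11 in cKO and 1.85 in WT, all past the threshold. Slc32a1 did not follow them. Its age difference was 0.27 in cKO (SE 0.41, edgeR adjusted p = 0.592) and 0.07 in WT (SE 0.41, edgeR adjusted p = 0.9). Among the receptors, Gabrb2 was higher by 3.04 in cKO and 3.31 in WT, Gabrd by 2.69 in cKO and 2.92 in WT, Gabbr2 by 3.27 in cKO and 2.56 in WT, and Glrb by 2.37 in cKO and 2.51 in WT, each passing in both genotypes. Glra2 was the member lower at P21 in both genotypes, by −2.45 in cKO (SE 0.33, edgeR adjusted p = 0.000213) and −2.64 in WT (SE 0.33, edgeR adjusted p = 0.000164). Gabre was lower in WT at −3.13 and did not pass in cKO at −0.29, a contrast covered by the test of the difference given above. Slc6a11 passed in cKO at 1.23 (edgeR adjusted p = 0.00209) and not in WT at 0.22 (edgeR adjusted p = 0.454), the same difference between ages as tested above.

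**Figure D4:**
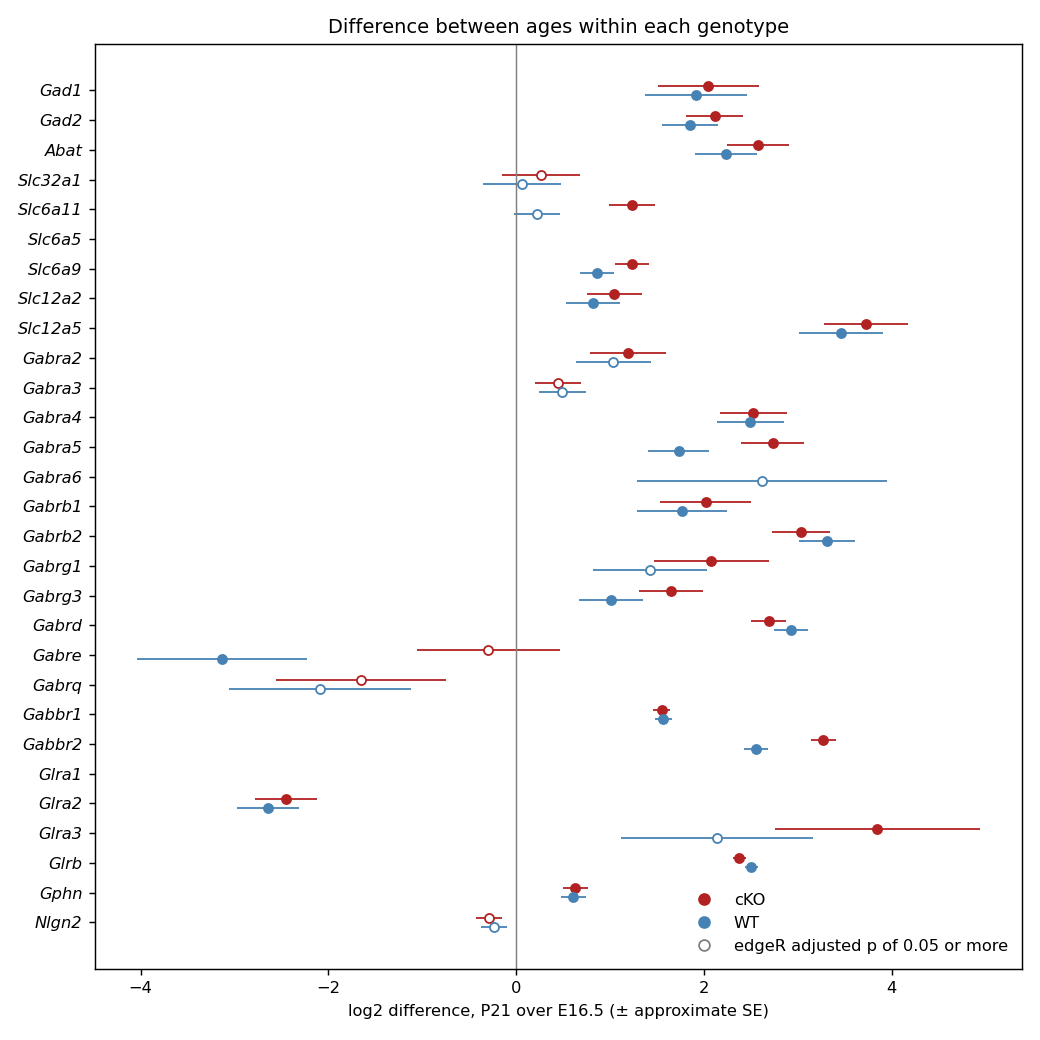
Log2 fold change of P21 over E16.5 for each tested member in cKO and in WT, with bars of 1 approximate SE. Slc12a5 stands near the top with 3.72 in cKO and 3.46 in WT and Glra2 lies below 0 in both (−2.45 and −2.64); Gabra6 in cKO is not drawn because it had 0 counts in all 3 embryonic cKO libraries.

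The histone marks were read as the authors' peaks within 1 kb of a RefSeq transcription start. For Gabrd, Slc12a2, Abat and Glra1, which had no start listed there, either end of the gene was used. H3K4me3 marks promoters, H3K27ac active promoters and enhancers, and H3K27me3 is the Polycomb mark of repressed or poised genes. With 1 library per genotype and mark these values have no replicate check and no test. H3K4me3 peaks lay at 26 of 29 members in cKO and 24 in WT, H3K27ac peaks at 17 in cKO and 13 in WT, and H3K27me3 peaks at 12 in cKO and 4 in WT.

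The cKO lists were longer for all marks, with 15659 H3K27me3 peaks in cKO against 4124 in WT, 24065 H3K27ac peaks in cKO against 13006 in WT, and 28234 H3K4me3 peaks in cKO against 25145 in WT. Member counts are therefore read against the 12219 genes that were tested at P21 and have a RefSeq promoter, of which 22 are members. H3K27me3 peaks were at 7 of these 22 in cKO, beside 14% of the genes, and at 3 in WT, beside 2.93%. H3K27ac peaks were at 15 in cKO, beside 70.9%, and at 11 in WT, beside 49.3%. H3K4me3 peaks were at 20 in cKO, beside 87.7%, and at 19 in WT, beside 86.1%. A peak in the cKO list only was found for H3K27me3 at 4 of the 22, beside 11.1%, and for H3K27ac at 4, beside 22.6%.

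The H3K27me3 peaks present in both genotypes were at the presynaptic genes Gad1, Gad2, Slc32a1 and Slc6a5. At Gad1 the peak covered 10055 bases in cKO against 359 bases in WT, with the authors' peak fold at 10.4 in cKO and 4.11 in WT. At Slc32a1 the peaks covered 9783 bases in cKO against 1725 in WT. At Gad2 the peak covered 3678 bases in cKO against 569 in WT, and at Slc6a5 the peaks covered 6752 in cKO against 3033 in WT. The covered length was greater in cKO at all 4, and over the whole genome the H3K27me3 lists covered 13035821 bases in cKO against 2860228 in WT. At −log10 q of at least 5 the WT peak of Gad1 was not counted. The RNA of Gad1, Gad2 and Slc32a1 at P21 did not differ detectably, as given above.

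Peaks of H3K27me3 in the cKO list only were at 8 of 29 members. They were Slc6a11 with 336 covered bases, Slc12a5 with 1486, Gabra5 with 907, Gabrd with 824, Gabre with 453, Gabrq with 1347, Gabbr2 with 1555 and Glra1 with 1815. The peak folds ranged from 3.89 at Slc6a11 to 8.59 at Glra1. At −log10 q of at least 5 those of Slc6a11, Gabra5 and Gabre were not counted. The RNA of the 8 genes at P21 had no shared direction. Gabrd passed as lower, Slc6a11 and Gabra5 lay below WT without passing, Slc12a5 and Gabbr2 overlapped WT, the few counts of Gabre lay above WT, those of Gabrq at or above it, and Glra1 had almost none. A sum of peak lengths moves with how much was called, and over all members H3K27me3 peaks covered 38991 bases in 21 peaks in cKO and 5686 bases in 10 peaks in WT.

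H3K27ac peaks in the cKO list only were at Gad1 with 278 bases, Gabrg3 with 316, Slc6a11 with 756 and Slc6a9 with 1331. Both H3K27ac and H3K27me3 peaks were present in cKO at 5 members, Gad1, Slc6a11, Slc12a5, Gabra5 and Gabbr2. At −log10 q of at least 5 neither peak of Slc6a11 was counted. The share of all genes with both marks in cKO was not computed. In whole tissue the 2 marks may come from different cells. H3K4me3 peaks were in the cKO list only at Gad2, Slc32a1 and Glra1, and in the WT list only at Gabra3. At −log10 q of at least 5 only Gad2 had one in cKO alone. At that limit the WT peak of Gabra3 was not counted, and 2 members, Gabre and Glra2, had one in WT alone. The shares of all genes in these H3K4me3 classes are not given here. H3K27ac covered 19849 bases at members in cKO and 9504 in WT, and H3K4me3 covered 47445 bases in cKO and 44825 in WT.

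**Figure D5:**
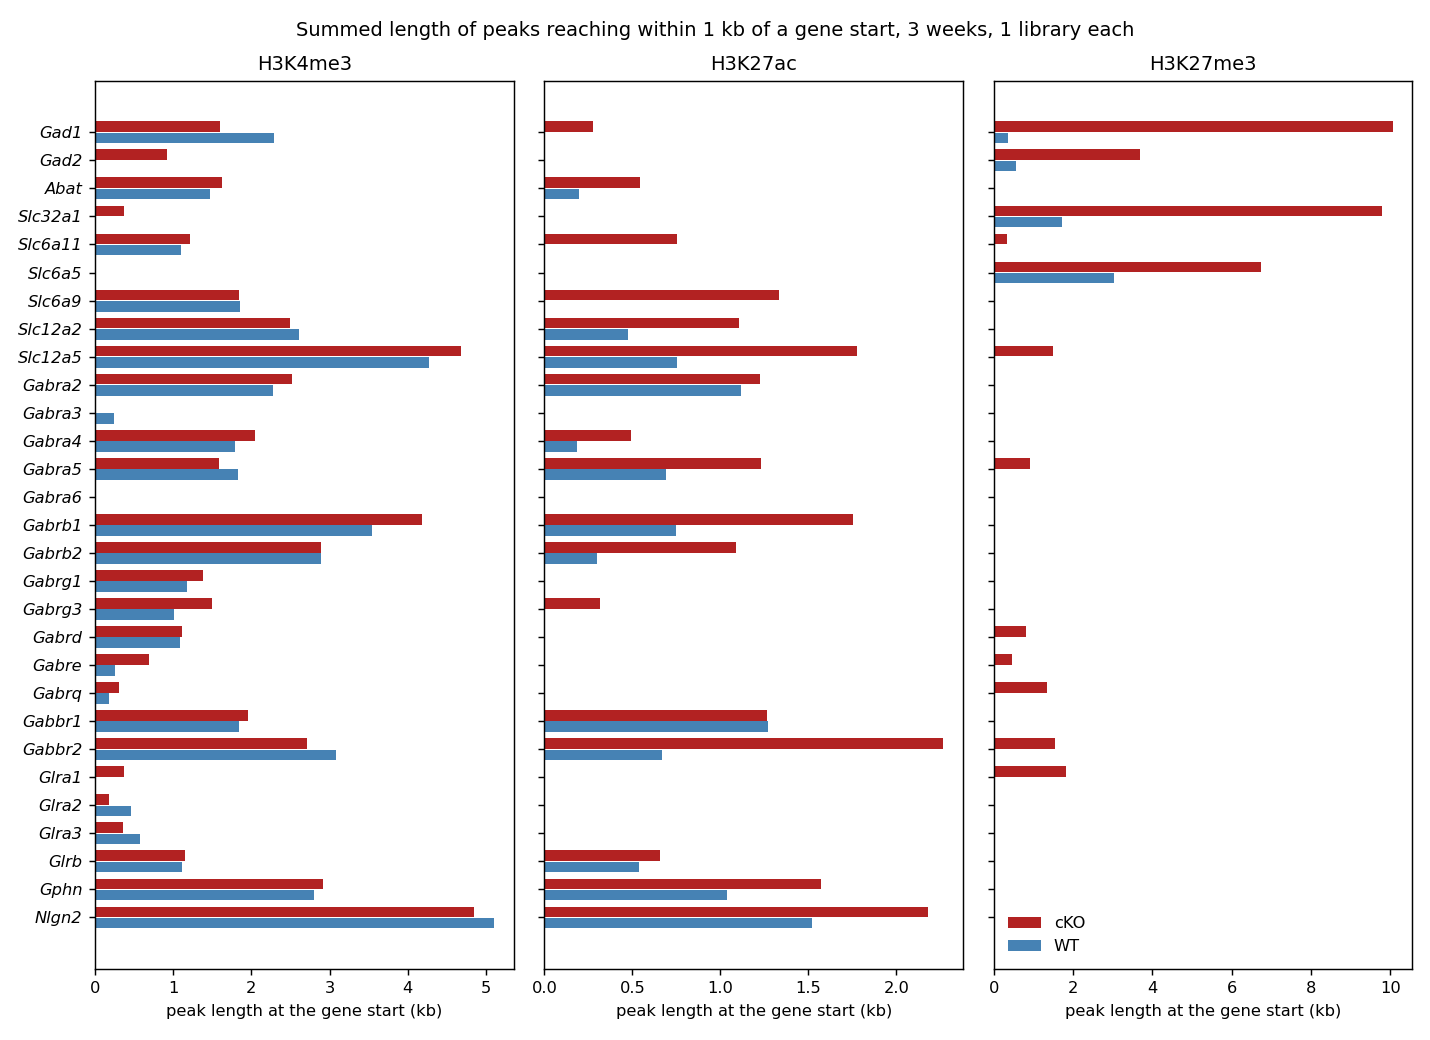
Summed length in kb of the H3K4me3, H3K27ac and H3K27me3 peaks near the start of each member at 3 weeks, 1 cKO bar above 1 WT bar, each from 1 library. H3K27me3 covers 10055 bases in cKO at Gad1 and 9783 at Slc32a1, against 359 at Gad1 and 1725 at Slc32a1 in WT, and 8 members have it in cKO only.

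The promoters printed above can be set beside these classes. The 4 members with H3K27me3 in both genotypes had between 12 and 21 CpG per window (median 15.5), the 6 with a RefSeq promoter and the peak in cKO only had 13 to 46 (median 23.5), and the 15 without such a peak had 0 to 42 (median 13). The ranges overlapped. The value is the highest over a gene's start sites, and it describes these windows only.

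Related genes outside the 29 were read in 3 lists. Of 20 genes of the inhibitory postsynapse and receptor trafficking, 0 were lower in cKO at P21 by edgeR, beside 3.91% of all genes. In the other direction 1 was higher, beside 2.81%. It was Hap1, a trafficking adaptor for GABA-A receptors, with 228 and 241 CPM in cKO against 141 and 108 CPM in WT (log2 fold change 0.91, SE 0.14, edgeR adjusted p = 0.0123). Of 14 genes of chloride and bicarbonate transport, 0 passed in edgeR. Before adjustment 1 higher and 4 lower had a p under 0.05, against the shares of all genes given above. DESeq2 called 4 lower, beside 5.20% of all genes. Car2, a carbonic anhydrase, had the lowest adjusted p there, at 84.4 and 67.6 CPM in cKO against 106 and 139 CPM in WT (log2 fold change −0.69, SE 0.16, edgeR adjusted p = 0.0505).

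Of 16 genes of GABA and glycine supply and breakdown, 2 were higher in cKO at P21 by edgeR, beside 2.81% of all genes. The number lower was 2, beside 3.91%. Glul, the glutamine synthetase of astrocytes, had 1656 and 1698 CPM in cKO against 941 and 981 CPM in WT (log2 fold change 0.80, SE 0.10, edgeR adjusted p = 0.00704). Slc6a6, a transporter of taurine, was the other gene that rose, with 248 and 247 CPM in cKO against 182 and 173 CPM in WT (log2 fold change 0.48, SE 0.10, edgeR adjusted p = 0.033). Neither gene overlapped between genotypes. Glul was higher while astrocyte markers summed lower, although 2 of those 9 markers had cKO above WT.

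The genes of that list that fell were Phgdh, the first enzyme of serine synthesis, and Slc38a5, an amino acid transporter for glutamine and glycine. Phgdh had 22.0 and 24.9 CPM in cKO against 40.9 and 36.7 CPM in WT (log2 fold change −0.73, SE 0.13, edgeR adjusted p = 0.0194). Slc38a5 had 2.65 and 2.21 CPM in cKO against 6.41 and 5.72 CPM in WT (log2 fold change −1.32, SE 0.24, edgeR adjusted p = 0.0222). At E16.5 none of the 3 lists had a gene past the threshold in edgeR. Counts at an unadjusted p under 0.05 were 0 higher and 3 lower of 20 for the postsynapse, 2 higher and 4 lower of 15 for supply, and 0 higher and 4 lower of 14 for chloride and bicarbonate, where 11.5% of all genes were lower and 9.13% higher at that limit. DESeq2 called 1, 2 and 2 genes lower in them, beside 4.49% of all genes, and none higher, beside 2.22%. The lowest adjusted p-values in edgeR were 0.167 for Insyn2a, 0.144 for Slc38a3 and 0.144 for Slc12a4, with log2 fold changes of −0.73, −1.26 and −0.95.

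Markers of GABAergic interneurons, the cells that make most hippocampal GABA, were read as a list of 15 genes. They summed to 729 and 867 CPM in cKO against 833 and 802 CPM in WT at P21, and to 868, 801 and 734 CPM in cKO against 911, 917 and 915 CPM in WT at E16.5. The sums overlapped at P21, while at E16.5 each cKO sum lay below each WT sum. The mean of log2(CPM + 0.5) over the 15 genes did not overlap at P21. It was 5.01 and 5.29 in cKO against 4.95 and 4.95 in WT. Single markers went both ways there without overlap, 7 with cKO higher, beside 28.2% of all genes, and 5 lower, beside 27.9%. By edgeR 1 of the 15 was higher at P21 and 0 lower, and before adjustment 7 higher and 4 lower had a p under 0.05. At E16.5, 0 of 13 passed, with 1 higher and 2 lower unadjusted, to be read against the shares of all genes given above for each age. The gene that rose was Lamp5, a marker of neurogliaform interneurons, with 78.2 and 94.4 CPM in cKO against 25.5 and 30.4 CPM in WT (log2 fold change 1.63, SE 0.14, edgeR adjusted p = 0.00202). Markers of striatal neurons, which also make GABA, summed to 244 and 347 CPM in cKO against 163 and 187 CPM in WT at P21. There 3 of the 11 were higher by edgeR, beside 2.81% of all genes, and 0 lower, beside 3.91%. The part of striatal markers in the levels of Gad1, Gad2 and Slc32a1 was not tested.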

How the data were processed

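The deposited expression tables hold estimated counts per gene, made by the authors with Salmon 1.0.0 on GRCm38, per the submitters' processing notes. The share of values that were not whole ran from 20.8% to 22.5% per library, and all were rounded. The authors' deposited comparison tables hold log2 fold changes, p-values and a mean expression score from DESeq2 1.26.0, in which an adjusted p of 1 stands where the p is missing. ChIP reads were aligned with Bowtie2 2.3.5.1, per the submitters' processing notes, and the peak lists hold pileup signal, fold over input and −log10 p and q, with MACS 2.2.7.1 at a q limit of 0.01 per the file headers.

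Counts were tested with edgeR 4.0.16 (filterByExpr, TMM, robust quasi-likelihood, R 4.3.3), within each age for genotype and in a joint fit of 10 libraries for age and for the difference of the cKO effect between ages, with Benjamini-Hochberg adjustment over all genes. The approximate SE is the log2 fold change over the square root of F. DESeq2 1.42.0, other scalings, no filter and leaving out each library were alternatives. Each fit was tested on simulated data. The edgeR p-values weigh a difference against the spread between these libraries, which is moderated across genes. In the joint fit that spread is pooled over both ages.

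Full values are given for members past the threshold, for members without overlap at both ages and past 0.5 in log2 size at either, and for the member with the highest count of each remaining role; other members were named after their values were seen. Of the related lists, at most the 3 genes with the lowest adjusted p were to be named, and Slc6a6 was added after its value was seen. The members and lists were chosen with earlier results of these data known. The labels used here do not say whether same-numbered libraries were paired, and the main fits did not pair them.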

Additional observations from a re-analysis of the deposited data

Results flagged for a closer look

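The cKO effect differed between ages for 7 genes of the lists read beside the members, by edgeR's test of the difference itself in the joint fit. Over all 18979 genes tested, 0.427% were higher and 0.738% lower in that test. Slc6a6 differed by 0.60 on the log2 scale (P21 minus E16.5, SE 0.10, adjusted p = 0.0337). It had 248 and 247 CPM in cKO against 182 and 173 CPM in WT at P21, and 134, 119 and 122 CPM in cKO against 139, 142 and 139 CPM in WT at E16.5. The cKO libraries were all above WT at P21 and all below it at E16.5. Lamp5 differed by 2.76 (SE 0.49, adjusted p = 0.0411), with 78.2 and 94.4 CPM in cKO against 25.5 and 30.4 CPM in WT at P21. In embryos Lamp5 had 0.224, 0.622 and 0.4997 CPM in cKO against 1.10, 1.39 and 0.564 CPM in WT, levels of few counts that overlapped between genotypes. The other 5 genes are cell type markers. Among astrocyte markers, Slc1a3 differed by 1.05 (SE 0.16, adjusted p = 0.0296) and Aldoc by 1.93 (SE 0.29, adjusted p = 0.0296). Of the others, Emx1 of excitatory neurons differed by −1.21 (SE 0.18, adjusted p = 0.0296), C1ql2 of dentate granule neurons by −2.66 (SE 0.31, adjusted p = 0.019) and Mog of oligodendrocytes by −2.12 (SE 0.16, adjusted p = 0.00449).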

How the results depend on the processing

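At P21 the count of members called lower, 2 as reported, was 0 with upper-quartile scaling, 0 with the replicate block, 0 in the fit of all 10 libraries, 4 with DESeq2 and 5 without a filter on low counts. It ran from 0 to 6 when 1 library was left out, with 6 without cKO replicate 1, 4 without cKO replicate 2 and 0 without either WT library, and the count higher ran from 0 to 2. At E16.5 the count lower, 0 as reported, was 3 with DESeq2, 1 without a filter and 2 in the fit of all 10 libraries. The count higher in the difference of the cKO effect, 0 as reported, was 1 with DESeq2 and ran from 0 to 2 with 1 library left out. The count lower with age was 1 under the replicate block in WT, against 2 as reported, and with 1 library left out it ran from 1 to 2 in cKO and from 1 to 2 in WT. The cause of these shifts was not tested, except that leaving out a library leaves fewer samples. Deviations from the group mean in same-numbered libraries of cKO and WT had correlations of 0.0198 at P21 and −0.228, −0.0208 and −0.492 at E16.5. Differently numbered P21 libraries had −0.0198, which 2 libraries per group fix as the mirror image. Deviations within a group sum to 0, so these values cannot show whether the numbers pair the libraries.

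For single members no called value changed sign. At P21, 225 of the values per member and alternative kept their side of the threshold, 14 gained and 11 lost it. At E16.5 without WT replicate 2 and cKO replicate 3, chosen after seeing the data, 0 members were called and Slc6a11 was at −1.78. At an unadjusted p under 0.05 in edgeR, 5 members were lower and 1 higher. The share of all genes was not computed for this setting, so these counts have nothing to be read against. The number of members with a peak moved by less than 1.5 times with a 5 kb window, with any overlap of the gene, or at a −log10 q of at least 5. The number of H3K27me3 peaks at members, 21 in cKO and 10 in WT, was 39 in cKO and 25 in WT with the 5 kb window. At the stricter q the members with H3K4me3 in cKO only were 1 in place of 3, and in WT only 2 in place of 1. Groups held 2 or 3 libraries, and edgeR's common biological spread between them, as a coefficient of variation, came to 0.146 in P21 libraries and 0.25 in embryonic ones.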

Other observations

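Values of other interneuron markers are given here, chosen once they had been seen, and neither of these genes passed in edgeR, while DESeq2 called Npy higher at P21 and Cck lower at E16.5. Npy, a neuropeptide of several interneuron classes, had 27.04 and 34.2 CPM in cKO against 20.03 and 20.9 CPM in WT at P21 (log2 fold change 0.58, SE 0.15, edgeR adjusted p = 0.0569). In embryos Npy had 92.0, 9.67 and 7.70 CPM in cKO against 12.5, 12.5 and 11.3 CPM in WT, where cKO replicate 1 alone was high. Cck, a peptide of basket cells that is also made by pyramidal cells, had 139.5 and 172 CPM in cKO against 199 and 196 CPM in WT at P21. The embryonic values of Cck were 18.1, 19.7 and 15.3 CPM in cKO against 51.4, 45.6 and 70.2 CPM in WT (log2 fold change −1.65, SE 0.19, edgeR adjusted p = 0.0508). Its groups did not overlap at either age, with cKO lower.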
